A study of Homo sapiens with 10 samples.

Results

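Myosin heavy chain genes encode the motor subunits that bind actin filaments and move along them at the cost of ATP. Genes named MYO or MYH followed by a number and, in some, a letter were taken from the protein-coding rows of the counts, which gave 39 genes of 19737 protein-coding gene rows and 58051 gene rows in all. The groups were RBM4 knockout clone 1 (3 paired-end libraries), RBM4 knockout clone 2 (2 paired-end libraries) and wild type (3 paired-end libraries), all HAP1, a near-haploid human line derived from KBM-7. A further RBM4 knockout library and a wild type library were sequenced single-end, and the labels do not say which clone the knockout library came from. RBM4 encodes an RNA-binding protein of pre-mRNA splicing and translation, each clone is 1 line, and the labels do not state that replicates are separate cultures, and the tests therefore gauge library-to-library spread that could be technical.

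Conventional myosins, of class II, assemble into bipolar filaments that contract actin in muscle and, in their nonmuscle forms, at the cell cortex and the cleavage furrow. The unconventional classes act singly or in pairs: class I myosins tether membranes to actin, class V myosins carry vesicles and other cargo, class VI moves towards the opposite filament end in endocytosis, class X travels to filopodia tips, and classes III, VII and XV serve stereocilia and microvilli. Each heavy chain binds light chains or calmodulin at its neck, and several bind their cargo through Rab proteins and adaptors.

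Total counts lay between 33192095 and 55617525 per paired-end library. RBM4, the targeted gene, stood at 22.3, 22.9 and 24.5 CPM (counts scaled to a common library size) in clone 1, 25.3 and 25.8 CPM in clone 2, against 79.8, 79.8 and 78.7 CPM in wild type, a log2 fold change of -1.77 in clone 1 and -1.64 in clone 2. Markers of blood cells were hardly present: 0 of 10 passed the filter on low counts, and CD3E, HBG1 and MPO had 0 counts in every paired-end library. Of 7 epithelial markers 5 were tested, and CDH1 and KRT19 had at most 1 count in any paired-end library. The list, mostly KRT18, summed to 68.2 to 75.0 CPM in clone 1 and 77.1 to 84.1 CPM in clone 2, against 49.8 to 55.2 CPM in wild type. Averaged over the clones, KRT8, KRT18 and CLDN7 were called higher and EPCAM and ESRP1 were not called, where 9.87% of all tested features were called higher. KRT18 was called in both clones. KRT8 was called in both but rose more in clone 2 (1.81 log2) than in clone 1 (0.38 log2). CLDN7 was called in clone 1 and not in clone 2. ESRP1 was called higher in clone 1 and not in clone 2. EPCAM averaged 2.30 CPM in clone 1, 0.963 CPM in clone 2 and 1.57 CPM in wild type, so the clones lay on opposite sides. Mesenchymal markers summed to 429 to 493 CPM in clone 1 and 501 to 503 CPM in clone 2, against 529 to 563 CPM in wild type, with 3 of 8 tested and COL1A2, DCN and LUM at 0. Of these 3, VIM, which makes up most of the sum, fell by 0.20 on the log2 scale and CDH2 by 0.19. COL1A1 rose by 0.76, with 19.7 CPM in clone 1 and 26.3 CPM in clone 2, against 13.4 CPM in wild type. Adjusted p was 0.0279, 0.0416 and 1.28e-05 for VIM, CDH2 and COL1A1 (clones averaged, edgeR's quasi-likelihood test). All 3 were thus called, where 18.0% of all tested features were. The falls of VIM and CDH2 were called in clone 1 and not in clone 2, with CDH2 at -0.34 in clone 1 and -0.03 in clone 2. Smooth muscle markers, 5 of 8 tested and MYOCD at 0, summed to 86.6 to 93.4 CPM in clone 1 and 71.4 to 72.3 CPM in clone 2, against 73.3 to 80.04 CPM in wild type. In bulk RNA, fewer cells of a type and less RNA per cell cannot be told apart, and the part of these markers in the results that follow was not tested.

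Of the 39 genes, 22 had enough counts to be tested and 17 did not. No count in any of the 8 paired-end libraries fell on 9 of them: the skeletal muscle genes MYH1, MYH2, MYH4 and MYH13, the cardiac genes MYH6 and MYH7, and MYO3A, MYO7B and MYO16. For each of these a count of 0 allows up to 3 counts per library, or 0.0541 to 0.0906 CPM. The other 8 held between 1 and 68 counts over the 8 libraries together: MYH8, MYO18B, MYO1F, MYO7A, MYH11, MYH14, MYO1H and MYO1A. The floors cover counting error only.

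MYH14, a nonmuscle class II gene, had 5, 7 and 7 counts in clone 1, 8 and 0 counts in clone 2, against 0, 0 and 1 count in wild type. The highest clone 2 library and all clone 1 libraries lay above wild type, while the other clone 2 library did not. It was not tested with the filter on low counts, and without that filter it was called higher averaged over the clones and in clone 1. MYH11, the smooth muscle heavy chain, had 28 counts over the 8 paired-end libraries but 292 counts in the single-end knockout library and 216 counts in the single-end wild type library. Its exons share 765 bases with NDE1 on the opposite strand, and NDE1 had 2588 and 2330 counts in the same single-end libraries. No source used here states how strand was treated in counting, so the MYH11 counts there cannot be told apart from NDE1.

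The 3 most abundant genes per kilobase of exon were MYH9 (nonmuscle myosin IIA), MYH10 (nonmuscle myosin IIB) and MYO10 (the filopodial class X motor). MYH9 had a level of 72.3 CPM per kilobase in clone 1, 71.5 in clone 2 and 65.7 in wild type. MYH10 had 38.5 CPM per kilobase in clone 1, 39.6 in clone 2 and 41.7 in wild type, and MYO10 had 36.4 in clone 1, 35.1 in clone 2 and 33.6 in wild type. Together these 3 genes took 65.7% of the CPM of all myosin heavy chain genes in clone 1, 65.1% in clone 2 and 64.6% in wild type. Next came MYO1C at 13.6, 13.7 and 12.2 CPM per kilobase in clone 1, clone 2 and wild type, MYO19, the mitochondrial class XIX myosin, and MYO5A. The lowest of the tested genes in clone 1 and in wild type was MYO15A, with 0.00668 CPM per kilobase in clone 1, 0.0188 in clone 2 and 0.00758 in wild type, and the lowest in clone 2 was MYO1G, at 0.00527. The ranks rest on the union of annotated exons: with the length of the longest coding transcript, MYO19 moved above MYO1C in wild type, at 37.2 against 19.6 CPM per kilobase.

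**Figure D1:**
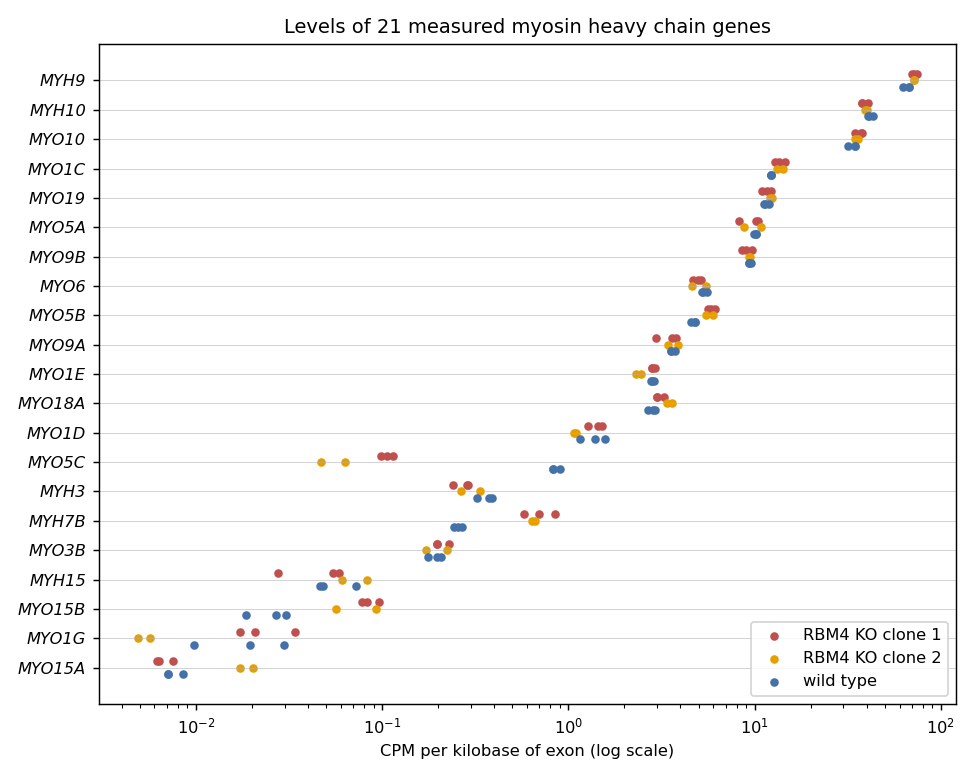
Levels of 21 of the 22 tested myosin heavy chain genes in CPM per kilobase of exon, on a log axis, with 1 point per paired-end library of clone 1, clone 2 and wild type. MYH9, MYH10 and MYO10 lie highest in all groups, and the points of MYO5C in both clones lie apart from those in wild type.

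The family as a whole did not stand apart between groups: the summed level of the 39 genes was 2183 to 2352 CPM in clone 1 and 2264 to 2317 CPM in clone 2, against 2156 to 2276 CPM in wild type. Single genes differed. When the clones were averaged and set against wild type, 7 of the 22 tested genes (31.8%) passed an adjusted p below 0.05 in edgeR's quasi-likelihood test with Benjamini-Hochberg adjustment, 5 higher and 2 lower, where 18.0% of all tested features did (9.87% higher and 8.09% lower). The genes that rose were MYO15B, MYH7B, MYO5B, MYO18A and MYO1C, and those that fell included MYO5C. Against wild type, clone 1 alone gave 5 calls (3 higher, 2 lower) beside 16.0% of all features (9.37% higher, 6.64% lower). Clone 2 alone gave 7 (4 higher, 3 lower) beside 10.8% (6.18% higher, 4.59% lower), and 4 without wild type replicate 1 or without clone 2 replicate 1. Both clones are set against the same wild type libraries, so their calls are not independent. Those called in both clones included MYO15B, MYH7B and MYO5B (higher) and MYO5C (lower). The median log2 fold change of the 22 genes was 0.01 and that of all tested features 0.00203.

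Every knockout library of both clones lay above every wild type library for 6 of the 22 genes and below it for 3, together 40.9%, where 25.3% of all tested features did so (13.5% above, 11.8% below). Besides the 7 called genes these were MYH9, which lay above, and MYH10, which lay below. MYO15A passed the filter on low counts through clone 2, where it is highest, so its presence among the tested genes says nothing about the others.

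**Figure D2:**
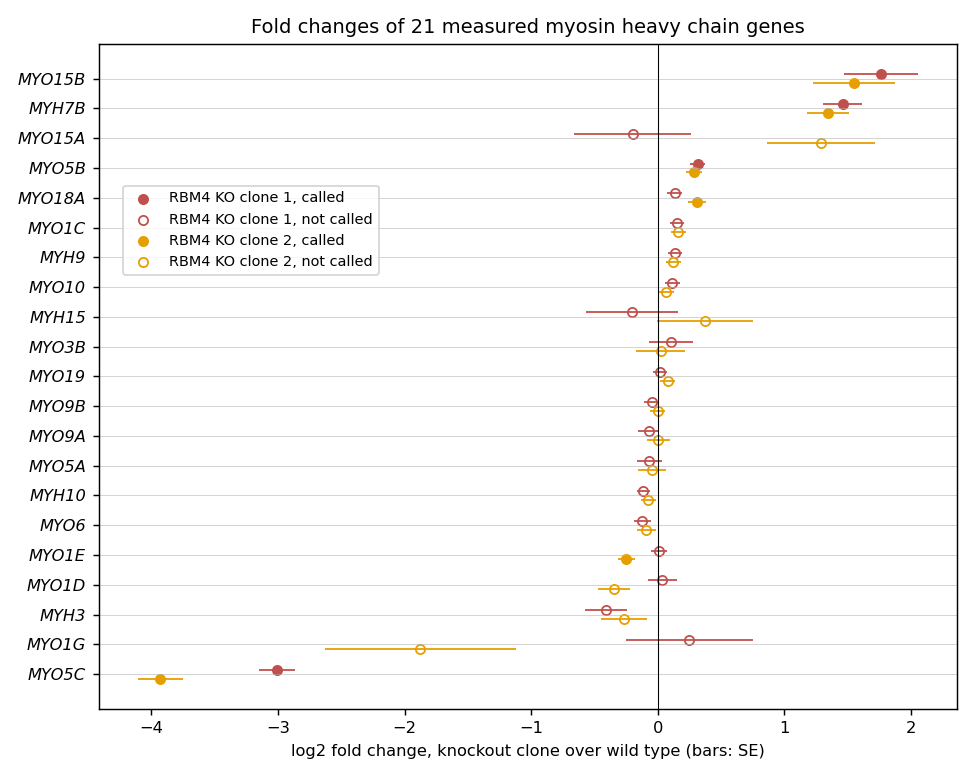
Log2 fold changes of 21 of the 22 tested myosin heavy chain genes in clone 1 and clone 2 over wild type, with bars for the SE and filled points for genes called at an adjusted p below 0.05. MYO5C lies far to the left in both clones, MYO15B and MYH7B lie to the right in both, and most other genes lie near 0.

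Class V held both a gene that rose and one that fell. The promoters of its 3 genes are shown because MYO5C and MYO5A are neighbours on 1 strand of chromosome 15, yet MYO5C fell and MYO5A was not called. Each is the 250 bases before the RefSeq transcript start on GRCh38.p14, minus strand, read in the direction of transcription: chr15:52295805-52296054 for MYO5C, chr18:50195148-50195397 for MYO5B and chr15:52529051-52529300 for MYO5A. Capitals mark GC boxes (GGGCGG or its reverse complement CCGCCC).
MYO5C: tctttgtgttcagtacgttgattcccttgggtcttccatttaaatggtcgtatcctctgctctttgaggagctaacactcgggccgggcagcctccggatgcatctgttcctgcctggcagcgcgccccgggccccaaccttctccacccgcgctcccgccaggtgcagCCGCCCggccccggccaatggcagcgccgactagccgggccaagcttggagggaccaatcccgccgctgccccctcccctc
MYO5B: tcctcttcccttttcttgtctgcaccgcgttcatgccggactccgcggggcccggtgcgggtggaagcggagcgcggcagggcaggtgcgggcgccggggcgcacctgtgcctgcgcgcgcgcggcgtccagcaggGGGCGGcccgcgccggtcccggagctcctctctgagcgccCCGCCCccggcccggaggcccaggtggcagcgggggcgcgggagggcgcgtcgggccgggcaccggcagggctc
MYO5A: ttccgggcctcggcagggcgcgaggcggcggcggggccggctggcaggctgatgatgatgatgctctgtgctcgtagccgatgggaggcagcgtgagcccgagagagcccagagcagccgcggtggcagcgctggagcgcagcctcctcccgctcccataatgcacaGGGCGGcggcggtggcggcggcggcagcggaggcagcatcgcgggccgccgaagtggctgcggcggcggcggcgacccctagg

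The MYO5C window holds 1 GC box, that of MYO5B 2 and that of MYO5A 1, and a GC box is present in 42.6% of 35116 RefSeq windows of this length. None of the 3 windows holds TATAAA or its reverse complement TTTATA (10.7% of windows do), the E-box CACGTG (6.34%) or TGACGTCA (1.65%). The MYO5C window is 65.6% GC and that of MYO5A 75.2%, and the MYO5B window is the most GC-rich of the 3. Such matches describe the letters only.

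MYO5C, a class V myosin of epithelial and glandular cells that works with secretory granules, lies on the minus strand of chr15:52192322-52295798 (GENCODE 29, GRCh38). It stood at 1.15, 0.993 and 1.06 CPM in clone 1, 0.470 and 0.638 CPM in clone 2, against 9.07, 8.28 and 8.29 CPM in wild type. The knockout libraries lay far below wild type and the groups did not overlap. The log2 fold change was -3.47 ± 0.13 (SE) averaged over the clones (adjusted p = 6.55e-10, 11.1-fold lower), -3.01 ± 0.14 in clone 1 (adjusted p = 1.57e-08) and -3.93 ± 0.18 in clone 2 (adjusted p = 7.61e-09). Counts behind these levels were 38, 55 and 43 in clone 1, 19 and 30 in clone 2, and 382, 290 and 342 in wild type. Between the clones, MYO5C was lower in clone 2 by a log2 difference of -0.92 (adjusted p = 0.0391), the 1 gene of 22 called where 2.09% of all features were, 0.993% of them lower in clone 2. That call was lost in 12 of 19 alternatives, among them leaving out any 1 of the 8 libraries (adjusted p up to 0.396).

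The single-end libraries, which allow no test, gave 22 MYO5C counts in the knockout and 370 in wild type, a log2 ratio of -3.90 with a 95% interval of -4.67 to -3.35 that covers counting error only. Within 500 kb of MYO5C 14 other genes were tested, of which 3 were called (21.4%, beside 18.0% of all features): ATOSA rose (0.26 log2) and MAPK6 and ARPP19 fell (-0.21 and -0.22). A gap of 11484 bases separates the gene bodies of MYO5C and MYO5A, and it lies upstream of MYO5C on the minus strand that both share. CERNA1, which shares 318 exon bases with MYO5C on the opposite strand, stood at 0.286 CPM in clone 1, 0.250 in clone 2 and 0.224 in wild type and was not called.

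MYO5B, the class V myosin that recycles membrane through Rab11 in epithelial cells, lies at chr18:49822813-50195093 on the minus strand. It stood at 58.6, 64.6 and 60.8 CPM in clone 1, 57.5 and 62.8 CPM in clone 2, against 47.8, 50.2 and 49.97 CPM in wild type. Every knockout library lay above every wild type library. It rose by a log2 fold change of 0.30 ± 0.053 (SE) averaged over the clones (adjusted p = 0.00159), with 0.32 in clone 1 and 0.29 in clone 2. In clone 2 the call was lost without wild type replicate 1 (adjusted p = 0.0773) or clone 2 replicate 2 (adjusted p = 0.175). Its exons share 551 bases with the protein-coding gene ENSG00000266997 on the same strand, which was not called (0.11 log2).

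MYO5A, the class V myosin of melanosome and vesicle transport, lies at chr15:52307283-52529050. It stood at 106, 136 and 133 CPM in clone 1, 113 and 140 CPM in clone 2, against 129, 132 and 132 CPM in wild type. The knockout libraries lay on both sides of wild type, clone 1 replicate 1 and clone 2 replicate 1 being lowest, and the log2 fold change was -0.06 ± 0.090 (adjusted p = 0.723). Those 2 libraries carry the sample numbers 4 and 5 in the counts table and the wild type libraries the numbers 1 to 3, while the other knockout libraries carry 11 to 13. With the numbers 1 to 5 alone, MYO5A was called lower, with a log2 fold change of -0.26 (adjusted p = 0.000974). The labels used here do not say what the numbers stand for, and no wild type library has a number above 3.

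Within class V, MYO5C took 0.492% to 0.691% of the counts in clone 1 and 0.275% to 0.313% in clone 2, against 4.34% to 4.88% in wild type. MYO5B took 31.2% to 35.3% in clone 1 and 30.8% to 33.6% in clone 2, against 25.7% to 26.3% in wild type. The class total overlapped between groups, at 166 to 202 CPM in clone 1 and 171 to 204 CPM in clone 2, against 186 to 191 CPM in wild type.

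**Figure D3:**
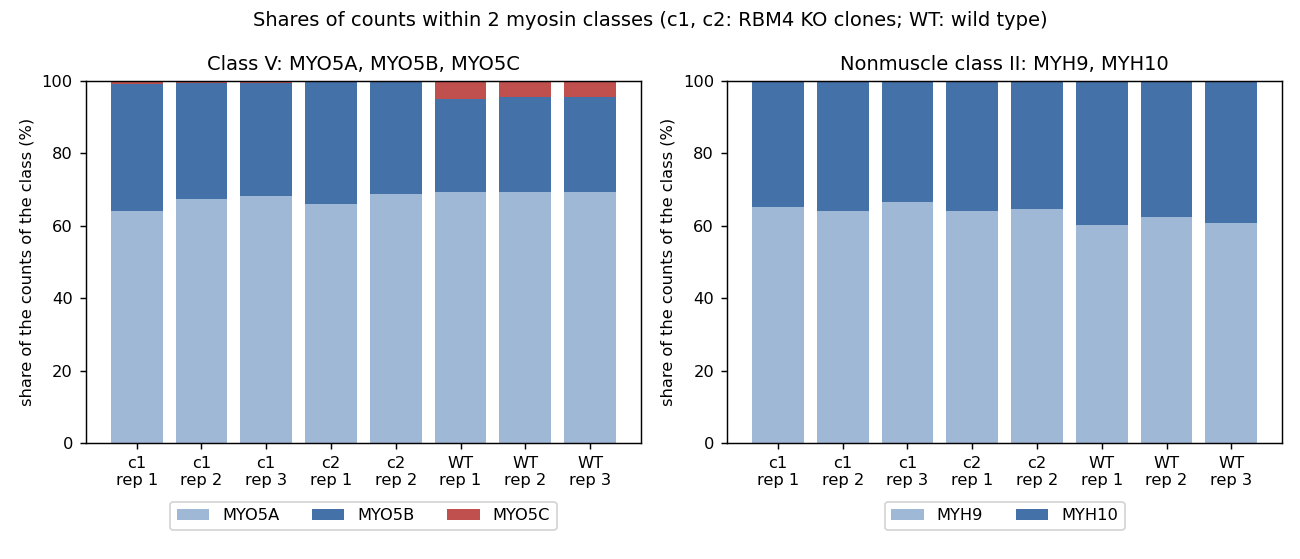
Share of counts taken by each gene within class V and within nonmuscle class II, in percent, with 1 bar per paired-end library of clone 1 (c1), clone 2 (c2) and wild type (WT). MYO5C takes under 0.7% in every knockout library and over 4% in every wild type library, and MYH10 takes a smaller share in each knockout library than in any wild type library.

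MYO1C, a class I myosin of GLUT4 vesicle delivery and of hair-cell adaptation in mouse, lies at chr17:1464186-1492812. It stood at 105, 109 and 118 CPM in clone 1, 115 and 107 CPM in clone 2, against 98.7, 98.7 and 99.8 CPM in wild type. Groups did not overlap, but the step was small: 0.16 ± 0.050 (SE) on the log2 scale averaged over the clones (adjusted p = 0.0430), and neither clone alone was called. The call was kept in 9 of 20 alternatives and was lost without any 1 library other than clone 1 replicate 1 (adjusted p up to 0.178). The value turned to -0.01 with an offset for GC content, and the single-end ratio was -0.01.

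MYO1E, a class I myosin of podocytes and of endocytosis, stood at 25.6, 25.6 and 26.6 CPM in clone 1, 22.5 and 20.9 CPM in clone 2, against 25.8, 25.2 and 26.2 CPM in wild type. Clone 2 lay below both other groups, and clone 1 overlapped wild type. The log2 fold change was -0.25 in clone 2 (adjusted p = 0.0339) and 0.01 in clone 1 (adjusted p = 0.920). The difference between the clones, -0.26, missed the threshold (adjusted p = 0.0875), but was called with the sample-number term and with the GC offset. The clone 2 call was lost in 10 of 19 alternatives, including the omission of either clone 2 library or of any 1 wild type library (adjusted p up to 0.230).

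MYO1D and MYO1G, also of class I, were tested and not called in any of the contrasts. MYO1D averaged 11.6 ± 1.02 CPM in clone 1 (SD, n = 3), 8.89 ± 0.207 CPM in clone 2 (n = 2) and 11.3 ± 1.74 CPM in wild type (n = 3). Both clone 2 libraries lay below every wild type library (log2 fold change -0.34, adjusted p = 0.111), and MYO1D was called lower in clone 2 with no filter on low counts, with the GC offset and without wild type replicate 2, and lower than in clone 1 with no filter. MYO1G, a class I myosin of lymphocytes, had 5, 10 and 12 counts in clone 1, 2 and 2 counts in clone 2, against 11, 3 and 7 counts in wild type, so clone 2 lay lowest and clone 1 overlapped wild type.

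Among conventional myosins the muscle-type gene MYH7B rose, and the tested nonmuscle genes, MYH9 and MYH10, were not called. MYH7B, a relative of the slow and cardiac muscle chains, lies at chr20:34975403-35002437 on the plus strand. It stood at 5.53, 4.58 and 6.76 CPM in clone 1, 5.27 and 5.08 CPM in clone 2, against 2.02, 1.94 and 2.13 CPM in wild type. All knockout libraries stood well above wild type. The log2 fold change was 1.40 ± 0.14 (SE) averaged over the clones (adjusted p = 1.7e-05, 2.65-fold higher), 1.46 in clone 1 and 1.35 in clone 2. In the single-end libraries it was smaller, with 326 counts in the knockout and 251 in wild type, a log2 ratio of 0.43 with a 95% interval of 0.23 to 0.72. The single-end wild type level was 5.81 CPM, against a paired-end wild type mean of 2.03 CPM, so the ratios do not start from the same level. It shares 34 exon bases with TRPC4AP on the opposite strand, which had a log2 fold change of 0.04 and was not called, and MIR499A, in an intron of MYH7B, had 0 paired-end counts.

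Most other muscle genes had few or no counts. Of 19 skeletal or cardiac muscle markers 3 were tested, 9 more held 3 to 60 counts over the 8 libraries together, and MYF5, MYF6, MYOD1, MYOG, TNNI1, TNNT2 and TNNT3 had 0 counts in all paired-end libraries. The list summed to 14.9 to 16.6 CPM in clone 1 and 19.6 to 20.1 CPM in clone 2, against 8.79 to 10.6 CPM in wild type. Most of this sum was TNNT1, a troponin T, with a log2 fold change of 0.94 averaged over the clones (adjusted p = 6.73e-06). The other tested markers went both ways. TNNI3, the cardiac troponin I, rose by 1.97 (adjusted p = 0.00105). NEB, the nebulin of skeletal thin filaments, fell by 1.32 (adjusted p = 0.0219), and was called in clone 1 and not in clone 2. NEB averaged 0.325 CPM in clone 1, 0.549 CPM in clone 2 and 1.10 CPM in wild type. All 3 tested markers were called averaged over the clones, where 18.0% of all tested features were. The part of these values in the MYH7B result was not tested. MYH3, the embryonic skeletal chain, averaged 1.81 CPM in clone 1, 2.01 CPM in clone 2 and 2.43 CPM in wild type and was not called (log2 fold change -0.34, adjusted p = 0.133), except with the sample-number term, which called it lower averaged over the clones and in clone 1, and MYH15 averaged 0.361 CPM in clone 1, 0.554 CPM in clone 2 and 0.428 CPM in wild type.

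MYH9 stood at 633, 649 and 674 CPM in clone 1, 644 and 644 CPM in clone 2, against 563, 606 and 606 CPM in wild type. The groups did not overlap, but the log2 fold change of 0.13 ± 0.048 (SE) missed the threshold (adjusted p = 0.0798) and was -0.04 with the GC offset. MYH10 stood at 338, 364 and 339 CPM in clone 1, 361 and 352 CPM in clone 2, against 372, 365 and 390 CPM in wild type. The highest knockout library lay just below the lowest wild type library, and the log2 fold change of -0.09 ± 0.047 was not called (adjusted p = 0.194). As a share of nonmuscle class II counts, MYH10 took 33.5% to 35.9% in clone 1 and 35.4% to 35.9% in clone 2, against 37.6% to 39.8% in wild type.

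MYO15B, a relative of the stereocilia myosin MYO15A, was the class XV gene that rose. Its exons lie on the plus strand of chr17:75588058-75626501, and it stood at 0.997, 1.06 and 1.23 CPM in clone 1, 1.19 and 0.723 CPM in clone 2, against 0.237, 0.342 and 0.388 CPM in wild type. No knockout library overlapped wild type, but counts were low, at 33, 59 and 50 in clone 1, 48 and 34 in clone 2, and 10, 12 and 16 in wild type. The log2 fold change was 1.66 ± 0.28 (SE) averaged over the clones (adjusted p = 0.00107, 3.16-fold higher), 1.77 in clone 1 and 1.55 in clone 2, where the call was lost without replicate 1 (adjusted p = 0.125). The single-end ratio was 0.50 with a 95% interval of -0.02 to 1.15. The single-end wild type level was 1.04 CPM, against a paired-end wild type mean of 0.323 CPM. MYO15A, which drives stereocilia growth in the inner ear, had 5, 7 and 5 counts in clone 1, 14 and 19 in clone 2 and 6, 5 and 7 in wild type, and was not called in clone 2 (log2 fold change 1.29, adjusted p = 0.0715).

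MYO18A, a class XVIII myosin of the Golgi and of actin bundles, lies at chr17:29071124-29180412. It stood at 45.1, 45.1 and 49.3 CPM in clone 1, 54.2 and 50.9 CPM in clone 2, against 40.2, 43.0 and 44.0 CPM in wild type. The step was small, and the lowest clone 1 library lay close above the highest wild type library. It rose by a log2 fold change of 0.22 ± 0.055 (SE) averaged over the clones (adjusted p = 0.0134) and by 0.31 in clone 2 (adjusted p = 0.00877), while clone 1 was not called (0.13, adjusted p = 0.154). The difference between the clones, 0.18, missed the threshold (adjusted p = 0.352). The averaged call was lost when clone 2 replicate 1, wild type replicate 1 or wild type replicate 2 was left out (highest adjusted p = 0.112), and the clone 2 call without wild type replicate 1 (adjusted p = 0.0567) or clone 2 replicate 1 (adjusted p = 0.113). With the GC offset the change was 0.08 (adjusted p = 0.326). Its exons share 1394 bases with TIAF1 on the same strand, which had a log2 fold change of 0.28 (adjusted p = 0.0568), so the authors' counting could have split reads between them.

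The remaining abundant genes varied little. MYO10 stood at 483, 523 and 520 CPM in clone 1, 481 and 500 CPM in clone 2, against 440, 483 and 485 CPM in wild type, with a log2 fold change of 0.09 (adjusted p = 0.266). MYO19 stood at 144, 153 and 161 CPM in clone 1, 157 and 161 CPM in clone 2, against 147, 149 and 156 CPM in wild type (0.05, adjusted p = 0.526). The groups overlapped in both. MYO19 shares exons with ZNHIT3 and PIGW on the opposite strand, so its level is uncertain where strand was not used. MYO6 (class VI, endocytosis), MYO9A and MYO9B (class IX) and MYO3B (class III) had log2 fold changes of -0.10, -0.03, -0.03 and 0.06 and were not called. With the sample numbers 1 to 5 alone, MYO6 and MYO9A were called lower, and the GC offset called MYO9B lower.

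**Figure D4:**
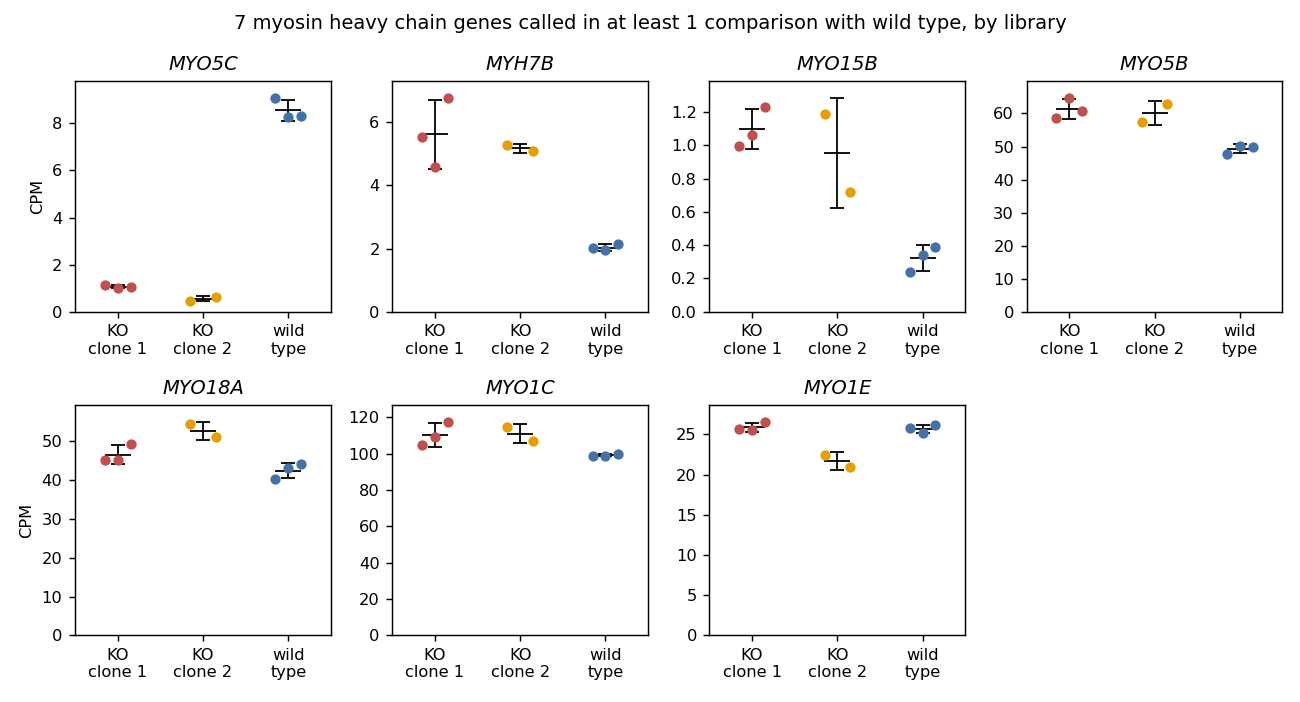
CPM of 7 myosin heavy chain genes called in at least 1 comparison with wild type, with 1 point per paired-end library and the mean with its SD for clone 1, clone 2 and wild type. The axes start at 0, so the steps of MYO1C, MYO18A and MYO5B are seen to be small beside those of MYO5C, MYH7B and MYO15B.

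Over the whole set of tested genes the fold changes moved with GC content. Over all tested genes with a GC value the median log2 fold change was -0.15 in the most GC-poor class and 0.13 in the most GC-rich class. Of the 8 tested myosin genes with at least 55% GC 6 had a fold change above 0, and all 5 with less than 45% GC had one below 0. With the GC offset MYO5C (-3.44), MYH7B (1.21), MYO15B (1.46) and MYO5B (0.30) were still called, and MYO18A and MYO1C were not.

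**Figure D5:**
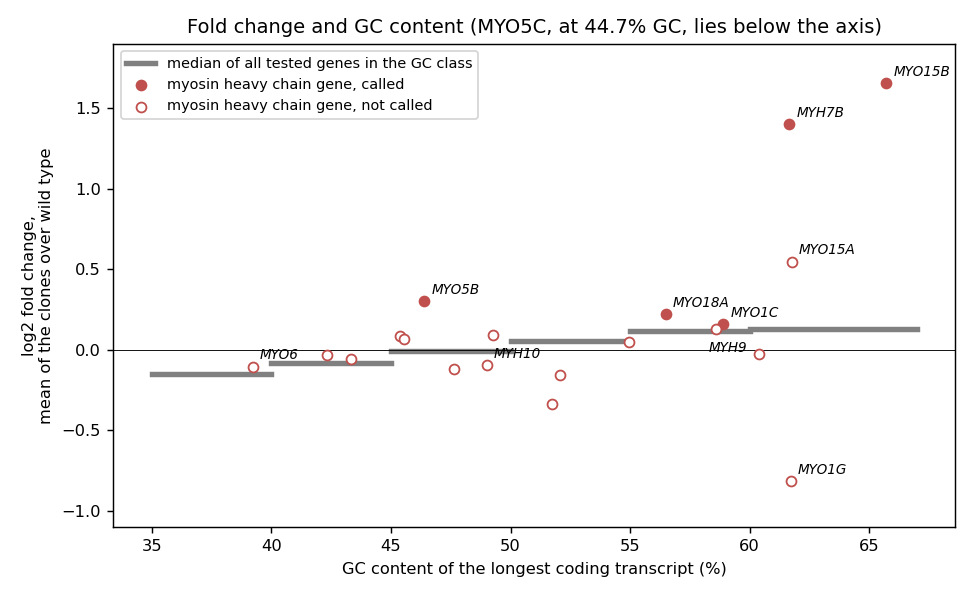
Log2 fold change in the mean of the clones over wild type against the GC content of the longest coding transcript, for 20 of the 22 tested myosin heavy chain genes (MYO5C lies below the axis), with grey bars for the median of all tested genes in each GC class. MYH7B and MYO15B lie above the bars of their classes, while MYO18A, MYO1C and MYH9 lie close to theirs.

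The proteins that myosins work with were taken as 8 lists of 159 genes found in the counts, of which 127 were tested, and 19 rose and 14 fell in the mean of the clones (26% of those tested, beside 18.0% of all features). Their median log2 fold change was 0.02, beside 0.00203 for all tested features. The call of 14 of these 33 genes was lost without some 1 library: CDC42BPG, EPS8L1, EPS8L2, MYL6B, MYRIP, PPP1CB, RAB10, RAB3B, SEPTIN7, SHROOM2, SYTL4, TAGLN2, USH1G and VASP, with adjusted p up to 0.228. Light chains had 3 of 10 that rose: MYL6 and MYL6B, the essential light chains of nonmuscle and smooth muscle myosin (0.28 and 0.34), and MYL5 (0.42), with none that fell and a median of 0.04. MYL6 averaged 305 ± 15.6 CPM in clone 1 (SD, n = 3) and 276 ± 7.21 CPM in clone 2 (n = 2), against 238 ± 17.2 CPM in wild type (n = 3). With the GC offset none of these 3 was called, and the same offset ended the calls of 12 other partner genes: CDC42BPG, ECT2, EPS8L1, EPS8L2, FSCN1, PPP1CB, RAB10, SEPTIN7, SHROOM1, SHROOM2, TAGLN2 and VASP (adjusted p up to 0.935).

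Of 32 kinases, phosphatase subunits and regulators of the light chains, 3 rose and 4 fell, with a median of 0.02. Beside them, 9.87% of all tested features rose and 8.09% fell. ARHGEF28, a guanine nucleotide exchange factor, rose by 1.07 on the log2 scale, RHOC by 0.36 and CDC42BPG, a kinase of the MRCK family, by 0.32. RHOB, a small GTPase, fell by 1.75, and PPP1CB, the catalytic subunit of myosin phosphatase, fell by 0.19. DAPK1 and ECT2, an exchange factor of the cleavage furrow, fell by 0.30 each. DAPK1 was higher in clone 2 than in clone 1 by 0.42. Its call was lost with the knockout libraries as 1 group (edgeR, adjusted p = 0.102). Of 4 tested chaperones 2 fell, HSP90AA1 by 0.31 and the lysine methyltransferase SMYD2 by 0.25, with a median of -0.20.

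Cargo partners had a median of -0.0073 for class V and 0.08 for class VI. Their calls stand beside 9.87% of all tested features that rose and 8.09% that fell. Of 23 tested class V adaptors RAB3B (0.25) and SYTL4 (0.22) rose, while RAB8B (-0.37), RAB11FIP2 (-0.34), MYRIP (-0.24) and RAB10 (-0.17) fell. RAB11FIP2 links Rab11 to MYO5B, and it averaged 34.8 ± 2.5 CPM in clone 1 (SD, n = 3) and 34.7 ± 1.33 CPM in clone 2 (n = 2), against 44.0 ± 2.30 CPM in wild type (n = 3). Of 15 class VI adaptors 2 rose, OPTN (0.52) and TOM1 (0.46), both of which bind MYO6, and none fell.

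Of 16 partners of class III, VII and XV myosins, 5 rose and 2 fell, with a median of 0.02. For these and the lists below, 9.87% of all tested features rose and 8.09% fell. The actin bundler ESPN, which binds class III myosins, averaged 2.14 ± 0.380 CPM in clone 1 (SD, n = 3) and 1.56 ± 0.00593 CPM in clone 2 (n = 2), against 4.94 ± 0.326 CPM in wild type (n = 3), a log2 fold change of -1.44 (adjusted p = 7.7e-06). EPS8, a cargo of MYO15A in mouse stereocilia, fell by 0.37, while its relatives EPS8L2 and EPS8L1 rose by 0.63 and 0.41. USH1G rose by 1.29 from a low level, with FSCN1 (0.35) and VASP (0.25). Of 15 tropomyosins, actins and their binding proteins TAGLN (0.92) and TAGLN2 (0.17) rose and none fell, with a median of 0.03. Of 12 myosin-binding and filament-organising proteins SHROOM1 (0.47) and SHROOM2 (0.18) rose, and MYOM1 (-1.73) and SEPTIN7 (-0.22) fell, where the value of MYOM1 came from clone 2 alone (-3.55, against 0.08 in clone 1), and the median was -0.03.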

How the data were processed

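The authors deposited raw counts, whole numbers for each gene and repeat subfamily that are not normalized. The authors used STAR 2.5.2a, an aligner, and the build GRCh38 (hg38), per the submitters' processing notes, and the table names give TEToolkit as the counter. Libraries were made from 65 ng of total RNA with a stranded mRNA kit, per the labels' protocols. No source used here states how strand was treated in counting.

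Counts were filtered with filterByExpr, which left 20747 features (19683 genes), scaled by TMM and tested with edgeR 4.0.16 (robust quasi-likelihood fit, 1 mean per group over 8 paired-end libraries). P-values were adjusted by Benjamini-Hochberg over all features and called below 0.05. SE values are the size of the log2 fold change over the square root of F. R 4.3.3, limma 3.58.1 and DESeq2 1.42.0 were used for alternatives. The code was tested on simulated data. The myosin genes, partner lists and markers were chosen with earlier results of these data known. Names and coordinates come from GENCODE 29, and promoter sequences from RefSeq (GRCh38.p14), which had a window for 32 of the 39 genes. The tested myosin genes are named, except 1 that enters the counts and sums but is not reported here. The others called in any contrast, or among the 6 highest per kilobase, are given in every library, and partners by their called members, at most 3 per direction where over 5 were called. Those beyond 3 of the light chain regulators, of the class V adaptors and of the class III, VII and XV partners were named to complete small counts, after their values were seen. The single-end pair used a prior count of 2 and no test. The single-end ratios were scaled by TMM. Their intervals are binomial intervals of the counts scaled by total counts, without the prior count, so they are not centred on the ratios. No library was a copy of another (chi-square per degree of freedom between replicates 4.22 to 20.0). Alternatives were other tools, scalings, filters, GC and length offsets, a term for sample numbers, a replicate block and leaving out each library.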

Additional observations from a re-analysis of the deposited data

Results flagged for a closer look

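Between the clones, 4 genes of the myosin and partner lists differed in edgeR's quasi-likelihood test of clone 2 against clone 1 with Benjamini-Hochberg adjustment over all features, 2.68% of the 149 tested and close to the 2.09% of all features. MYO5C differed by -0.92 on the log2 scale, at 0.554 CPM in clone 2 and 1.07 CPM in clone 1, with a fold change against wild type of -3.93 in clone 2 and -3.01 in clone 1 (adjusted p of the difference 0.0391). MYOM1, the M-band protein myomesin, differed by -3.64, at 1.44 CPM in clone 2 and 18.0 CPM in clone 1 (adjusted p = 5.6e-10). ACTG2, the enteric smooth muscle actin, differed by -0.56, at 31.7 CPM in clone 2 and 46.8 CPM in clone 1 (adjusted p = 0.00133). DAPK1, a kinase of the regulatory light chain, differed by 0.42, at 34.1 CPM in clone 2 and 25.4 CPM in clone 1 (adjusted p = 0.00429). Each clone is 1 line with 2 or 3 libraries, so a difference between clones cannot be told apart from a difference between these libraries.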

How the results depend on the processing

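In the mean of the clones, MYO5C, MYH7B, MYO15B and MYO5B kept their direction and call in all 20 alternatives, MYO18A in 16 and MYO1C in 9. The number of called myosin genes stayed between 5 and 10, against 7, and leaving out 1 library gave 5 to 7. In clone 1 the count was 9 with the sample-number term, against 5, and leaving out 1 library gave 5 to 6. In clone 2 leaving out 1 library gave 4 (without wild type replicate 1 or clone 2 replicate 1) to 7. Between the clones the count of 1 (MYO5C) became 2 with no filter (adding MYO1D) and with the sample-number term or the GC offset (adding MYO1E). It became 0 with DESeq2 (6 genes at an unadjusted p below 0.05), limma-voom (6), sample numbers 1 to 5 alone (4) and each omission of 1 library (0 to 0, with 4 to 6 at an unadjusted p below 0.05), these last in edgeR. Called features of the whole table ranged between 1847 and 4908, against 3725, with 1847, 2217 and 2443 without wild type replicate 1, 2 or 3. Called class V adaptors were 2, against 6, without clone 2 replicate 2, wild type replicate 1 or wild type replicate 3. Called partners of class III, VII and XV were 4, against 7, without wild type replicate 1 or 2. Called light chains were 5, against 3, without clone 1 replicate 1 or 3, and called class VI adaptors 4, against 2, without clone 1 replicate 2. Called myosin-binding proteins were 2, against 4, without clone 2 replicate 1, wild type replicate 1 or wild type replicate 3. Called tropomyosins and actins were 1, against 2, without either clone 2 library, wild type replicate 1 or wild type replicate 2.

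Signs turned for MYO1C (-0.014), MYH9 (-0.040), MYO19 (-0.076) and MYO5A (0.00015) with the GC offset, for MYO19 (-0.0048) with sample numbers 1 to 5 alone, and for MYO5A (0.012) without clone 2 replicate 1, where leaving out 1 library gave -0.148 to 0.012. The cause was not tested. Over 59 gene values and 1165 alternatives, 1017 kept direction and side of the threshold and 140 lost the call.

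With a replicate block 7 myosin genes were called in the mean of the clones, as without it, and 0 between the clones (6 at an unadjusted p below 0.05 in edgeR). The block called 11 light chain regulators, against 7, and 5 class VI adaptors, against 2. Deviations from the group mean correlated above 0.1 in 2 of 7 pairs of same-numbered libraries (-0.23 to 0.25). Both were pairs of the clones, replicate 1 (0.253) and replicate 2 (0.197), whose libraries carry the sample numbers 4 and 5, and 11 and 13, so numbers and replicates cannot be told apart there. The 5 pairs with wild type lay below 0.1. Clone 2 has 2 libraries, whose deviations mirror each other, so the 2 pairs are not separate evidence. Pairs of other numbers reached 0.179 (wild type replicate 2 with clone 1 replicate 3) and 0.175 (wild type replicate 3 with clone 1 replicate 1). These correlations therefore cannot show whether same-numbered libraries belong together. Depth limits MYO15A, MYO1G and MYH14, which had 20 counts or fewer in every library.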
